A study of Mus musculus with 12 samples.

Results

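Hif1a and Gm15283 are a pair of mouse genes annotated on opposite strands of the same stretch of chromosome 12. They were chosen by their Ensembl identifiers (ENSMUSG00000021109 and ENSMUSG00000087700), and make up 2 of the 55471 identifiers counted in each library. The choice was made because the Hif1a identifier had been seen to be higher after stimulation, so its levels in that contrast are given as a description, with no test. Total RNA came from mixed cortex and hippocampus of male C57BL6JL mice aged 3 to 5 months. The groups were MECS U1, naive U1, MECS input and naive input, with 3 libraries each. MECS mice had received maximal electroconvulsive stimulation, an 85 mA current lasting 1 s that produced generalized convulsions, and tissue was taken 90 min later, whereas naive mice were only handled. Homogenised tissue had been irradiated at 400 mJ/cm2, which ties RNA to bound protein, and the input was taken from the same lysate. U1 libraries hold RNA precipitated with an antibody to U1-70K, one of the proteins of U1 snRNP, the small nuclear particle described below. No precipitate with a control antibody was analysed here, and binding to U1 cannot be told apart from other differences in recovery between U1 and input. Nothing in the labels says how many animals gave each library, and p-values measure only the spread between these libraries, which may be technical.

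Hif1a encodes HIF-1α, the oxygen-regulated subunit of the transcription factor HIF-1. When oxygen is plentiful, prolyl hydroxylases mark the protein for destruction by the VHL ubiquitin ligase. When oxygen is short, it pairs with ARNT and switches on genes of glucose uptake, glycolysis, blood vessel growth and red cell production. Gm15283 is a noncoding gene of the antisense class, and the sources used here state no function for it. U1 snRNP recognises the start of introns and also protects primary transcripts from being cut and polyadenylated early.

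In GENCODE M21 (GRCm38, the assembly also called mm10), Hif1a lies at chr12:73901375-73947530 on the plus strand, and Gm15283 at chr12:73843039-73949814 on the minus strand. All of Hif1a is therefore inside Gm15283. Hif1a has 5896 exon bases and Gm15283 has 2353. The exons coincide over 330 bases in 2 stretches, which is 5.60% of the Hif1a exon bases. Of the Gm15283 exon bases, 1289 (54.8%) fall within the span of Hif1a. Another 148 exon bases of Hif1a are shared on the same strand with Gm49321, annotated as protein coding.

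**Figure D1:**
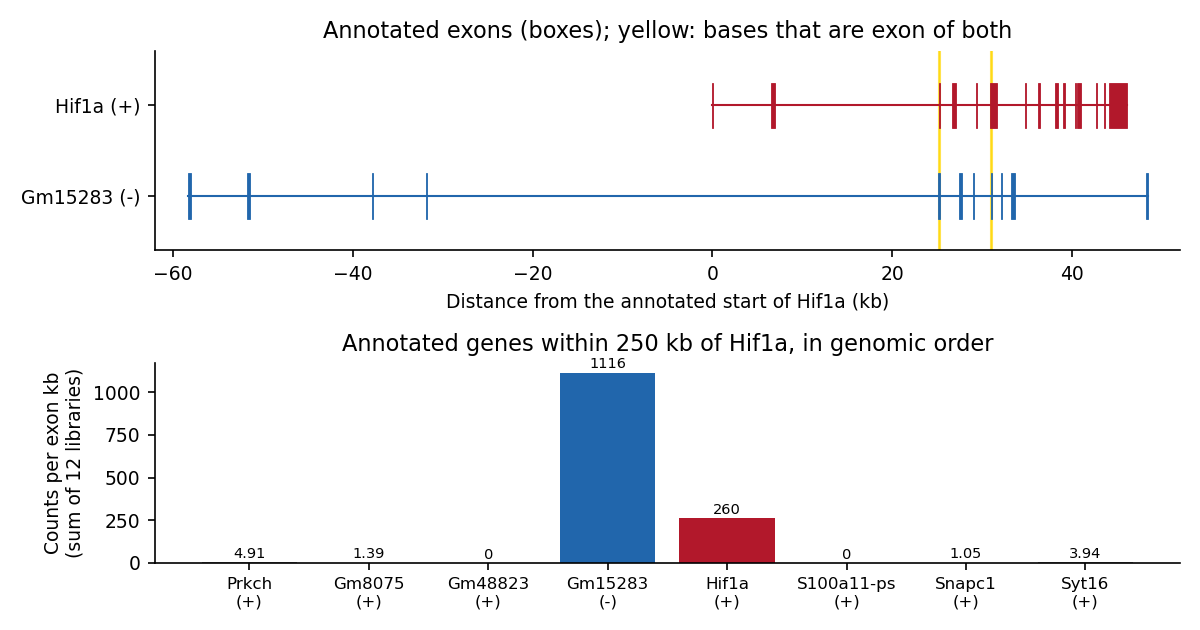
Top, annotated exons of Hif1a and Gm15283 along the distance from the Hif1a start in kb, with the shared bases in yellow. Bottom, counts per kb of exon not shared with another gene on the same strand, summed over the 12 libraries. Gm15283 (1116) and Hif1a (260) stand above the other genes drawn, which have 0 to 4.91.

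The sequences below, from the GENCODE M21 transcripts, show why the strand assigned to a read decides its gene here. The first is exon 6 of Hif1a-201 (chr12:73932274-73932476, plus strand), which codes for protein throughout, with the bases that are also exon 4 of Gm15283-201 in capitals. The second is that Gm15283 exon (chr12:73932326-73932464, minus strand), the reverse complement of those capitals. The third is exon 7 of Gm15283-201 (chr12:73926481-73926754, minus strand), with capitals where it lies opposite a whole coding exon of Hif1a.
Hif1a exon 6: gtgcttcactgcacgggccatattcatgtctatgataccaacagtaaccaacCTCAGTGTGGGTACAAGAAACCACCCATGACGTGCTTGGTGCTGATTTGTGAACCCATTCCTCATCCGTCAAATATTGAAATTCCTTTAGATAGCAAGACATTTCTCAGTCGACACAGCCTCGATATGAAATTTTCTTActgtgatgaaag
Gm15283 exon 4: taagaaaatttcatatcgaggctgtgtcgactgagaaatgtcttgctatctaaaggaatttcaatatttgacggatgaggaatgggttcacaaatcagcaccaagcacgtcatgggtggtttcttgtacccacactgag
Gm15283 exon 7: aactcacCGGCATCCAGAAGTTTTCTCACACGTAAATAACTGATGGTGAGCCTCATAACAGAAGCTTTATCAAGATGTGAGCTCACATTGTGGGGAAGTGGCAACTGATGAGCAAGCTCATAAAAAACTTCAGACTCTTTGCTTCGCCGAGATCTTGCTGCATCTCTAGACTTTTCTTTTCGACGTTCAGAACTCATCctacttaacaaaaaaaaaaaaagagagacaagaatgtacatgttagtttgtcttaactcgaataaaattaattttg

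The library kit kept strand, but which strand setting was used when counting is not stated by the labels or file headers. Counts under either name may therefore be reads of that gene or of RNA made from the other strand at the same place, and the names below stand for identifiers. Of the reads listed per library, 1.42 to 1.84% were counted in genes and 88.3 to 91.3% in no feature. In CPM, the scaled counts defined below, 8 neuronal marker genes summed to between 76.0 (a naive U1 library) and 397 (a naive input library). Gapdh averaged from 95.1 CPM in naive input to 172 CPM in MECS U1. Which strand had been counted was not tested. Summed over the 12 libraries, Gm15283 had 2625 counts and Hif1a 1497. Genes within 250 kb had few: Prkch, a protein kinase C gene upstream, had 37, Syt16, a synaptotagmin gene downstream, had 36, and Snapc1, which encodes a subunit of the snRNA-activating complex, had 8. Gm8075 had 1 count, and Gm48823, Gm49321 and S100a11-ps had 0 in all 12 libraries. Among the genes within 250 kb, none of the other strand has an annotated exon opposite the exons of these neighbours. Prkch and Syt16 extend beyond that window, where this was not checked. The highest count of a neighbour in any library was 8, in Prkch.

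Because U1 snRNP binds intron starts, the Hif1a splice sites that can be read from other annotated transcripts are shown, with the first 6 intron bases in capitals. They follow exon 3 (chr12:73928126-73928141), exon 4 (chr12:73928293-73928308), exon 6 (chr12:73932471-73932486) and exon 9 (chr12:73939744-73939759) of Hif1a-201, all on the plus strand. Of the 6 letters GTAAGT, which pair with the U1 RNA, they match 4, 4, 5 and 5 in that order. The last sequence comes from the end of Hif1a-203 (chr12:73933036-73933065), an annotated short transcript that runs 600 bases into the intron after exon 6, and its capitals are the polyadenylation hexamer AATAAA, 23 bases before the transcript ends. Counts per gene cannot tell this transcript from the long ones.
Exon 3 site: actcagGTAAAGtccc
Exon 4 site: gaaatgGTGAGAagaa
Exon 6 site: tgaaagGTAAATgaac
Exon 9 site: gcgatgGTCAGTgctt
Hif1a-203 end: tcttaataatgaAATAAAtactcctgttac

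The Hif1a identifier was high in every MECS library and low in every naive one. Levels are given in CPM, gene counts brought to a common library size with TMM factors over all 12 libraries. In U1 RNA, Hif1a had 195, 106 and 175 CPM in MECS libraries 1, 2 and 3 (257, 139 and 283 counts), against 27.0, 59.4 and 24.2 CPM in naive libraries 1, 2 and 3 (22, 118 and 28 counts). The means were 159 ± 46.3 CPM in MECS U1 and 36.9 ± 19.5 CPM in naive U1 (SD, n = 3 each). In input RNA, Hif1a had 153, 86.7 and 200.1 CPM in MECS libraries 1, 2 and 3 (207, 97 and 208 counts), against 37.6, 57.9 and 40.6 CPM in naive libraries 1, 2 and 3 (44, 40 and 54 counts). The means were 146 ± 57.0 CPM in MECS input and 45.4 ± 11.0 CPM in naive input (SD, n = 3 each). Neither U1 nor input libraries overlapped between the states, and the lowest of the 6 MECS values, 86.7 CPM, was above the highest of the 6 naive values, 59.4 CPM. Hif1a was chosen from this contrast, so the separation is no independent evidence. The share of all features that separate in this way was not computed. In bulk tissue, fewer cells of a type and less RNA per cell cannot be told apart.

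The libraries numbered 2 were the nearest to each other. Number 2 was the lowest of the MECS libraries in both U1 and input RNA, and the highest of the naive libraries in both. Naive U1 2 is also the deepest library, with 1962312 gene counts, whereas naive input 2 is the shallowest, with 704432. In edgeR's fit the log2 change of MECS over naive was 1.998 (SE 0.27) in U1 RNA and 1.70 (SE 0.24) in input, fold changes of 3.99 and 3.25. Those were the fifth of 11141 and the eighth of 10402 features tested when ordered by log2 change. Hif1a was chosen as high in this contrast, so its ranks are a description only. Without naive U1 2 the change in U1 RNA was 2.64.

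**Figure D2:**
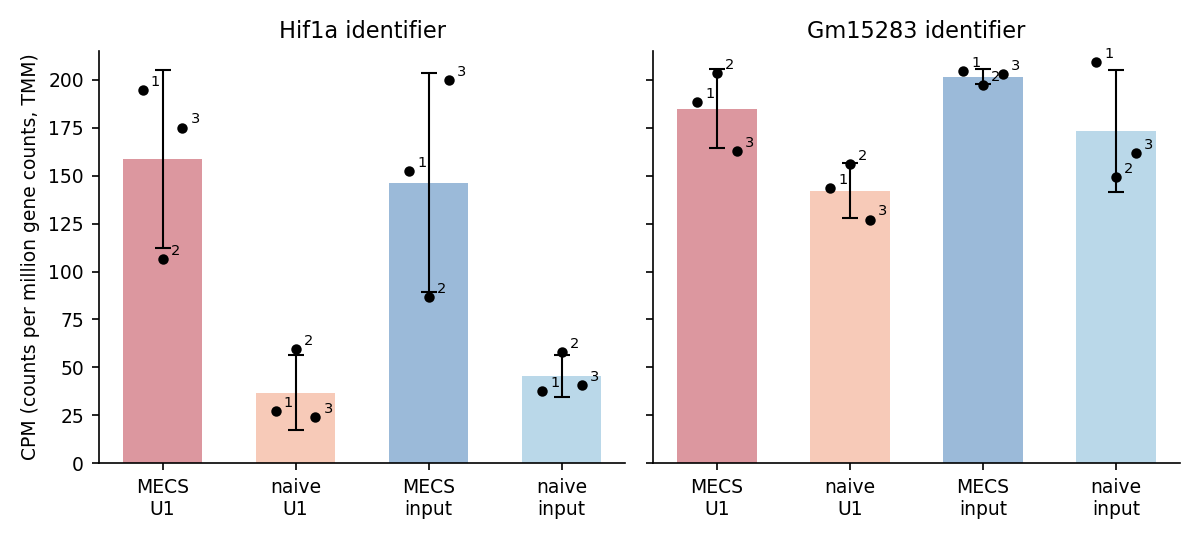
CPM of the Hif1a and Gm15283 identifiers in each library, by group; points are libraries with their replicate number, bars are means and error bars the SD of 3 libraries. Hif1a lies between 86.7 and 200.1 CPM in the MECS libraries and between 24.2 and 59.4 CPM in the naive ones, while Gm15283 lies between 127 and 210 CPM throughout.

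Gm15283 differed less between the states, which was not tested. In U1 RNA it had 188, 204 and 163 CPM in MECS libraries 1, 2 and 3 (249, 266 and 263 counts), against 144, 156 and 127 CPM in naive libraries 1, 2 and 3 (117, 310 and 147 counts). The lowest MECS U1 value, 163 CPM, lay just above the highest naive U1 value, 156 CPM. With 3 libraries against 3 an exact test cannot give a p under 0.1, so a separation like this shows little. The share of all features that separate in this way was not computed. In input RNA it had 205, 197 and 203 CPM in MECS libraries 1, 2 and 3 (278, 221 and 211 counts), against 209.5, 149 and 162 CPM in naive libraries 1, 2 and 3 (245, 103 and 215 counts). There the groups overlapped, since naive input 1 was the highest of the 6. The log2 change of MECS over naive was 0.36 (SE 0.16) in U1 RNA and 0.19 (SE 0.16) in input, given like those of Hif1a as a description. Of all features tested, 13.9% had a higher log2 change in U1 RNA and 26.1% in input.

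Per kb of exon the order of the pair was the same in all 4 groups. Over the 5748 bases that Hif1a does not share on its own strand, Hif1a averaged 27.6 ± 8.06 CPM per kb in MECS U1, 6.42 ± 3.40 in naive U1, 25.5 ± 9.91 in MECS input and 7.90 ± 1.91 in naive input (SD, n = 3 each). Gm15283 averaged 78.6 ± 8.78 CPM per kb in MECS U1, 60.5 ± 6.17 in naive U1, 85.7 ± 1.64 in MECS input and 73.7 ± 13.5 in naive input (SD, n = 3 each). Neighbouring groups of the Hif1a order, MECS U1 and MECS input at the top and naive input and naive U1 at the bottom, differed by less than their SD. The gap in the middle of that order lay between the MECS and the naive groups.

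Of all counts of the pair, the Hif1a identifier took 50.8, 34.3 and 51.8% in MECS U1 1, 2 and 3 and 15.8, 27.6 and 16.0% in naive U1 1, 2 and 3. It took 42.7, 30.5 and 49.6% in MECS input 1, 2 and 3 and 15.2, 28.0 and 20.1% in naive input 1, 2 and 3. The highest naive share was thus 28.0% (Wilson 95% interval 21.3 to 35.8%), and the lowest MECS share 30.5% (25.7 to 35.8%), and the intervals of the libraries numbered 2 overlapped. These intervals cover counting error only. The mean share in U1 was 4.71 percentage points above input after MECS (2-sided exact permutation test, p = 0.5) and 1.29 points lower than input in naive brain (U1 minus input, -1.29; 2-sided exact permutation test, p = 0.9). With 3 libraries against 3 the smallest possible p is 0.1. Set against the input of the same number, the U1 share was higher in 3 of 3 MECS pairs (2-sided exact permutation test over pairs, p = 0.25) and in 1 of 3 naive pairs (p = 0.75 by the same exact test). The test over pairs was chosen after seeing the data, and 0.25 is the smallest p that 3 pairs can give.

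**Figure D3:**
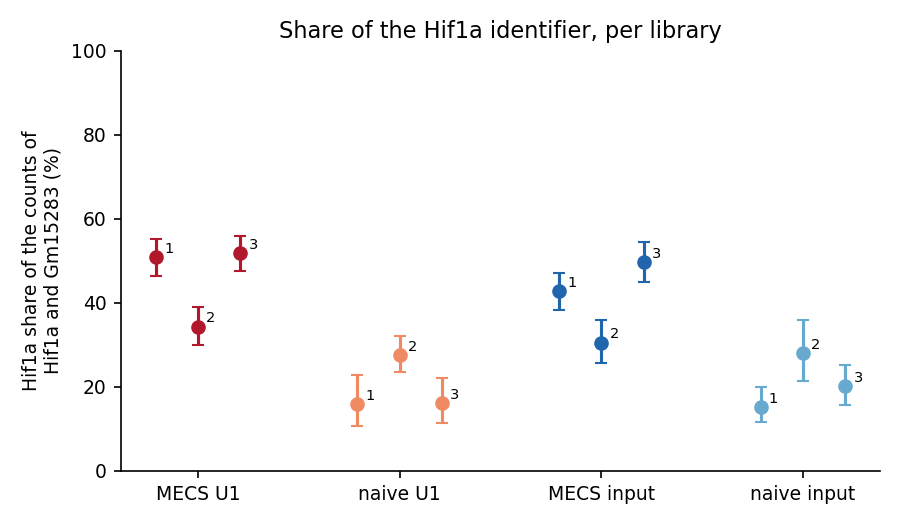
Share of the Hif1a identifier in the counts of Hif1a and Gm15283, in percent, for each library with its Wilson 95% interval and replicate number. Shares run from 30.5 to 51.8% in MECS libraries and from 15.2 to 28.0% in naive libraries, with number 2 nearest to the other state in each group.

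Neither identifier was enriched or depleted with U1 beyond the spread between libraries. These comparisons were not used to choose the pair and were tested by quasi-likelihood in edgeR, with p adjusted over all features by the Benjamini-Hochberg method. In MECS brain, Hif1a averaged 159 CPM in U1 and 146 CPM in input, a log2 difference of 0.12 (SE 0.23, edgeR adjusted p = 0.836). In naive brain, Hif1a averaged 36.9 CPM in U1 and 45.4 CPM in input, a log2 difference of -0.19 (SE 0.29, edgeR adjusted p = 0.791). The 95% intervals run from 0.78-fold to 1.52-fold in MECS brain and from 0.58-fold to 1.33-fold in naive brain. Without naive U1 2, the naive difference was -0.80 (edgeR adjusted p = 0.104).

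Gm15283 averaged 185 ± 20.7 CPM in MECS U1 and 202 ± 3.85 CPM in MECS input (SD, n = 3 each), a log2 difference of -0.13 (SE 0.15, edgeR adjusted p = 0.707). In naive brain it averaged 142 ± 14.5 CPM in U1 and 173 ± 31.9 CPM in input (SD, n = 3 each), a log2 difference of -0.28 (SE 0.17, edgeR adjusted p = 0.387). Its intervals run from 0.74-fold to 1.13-fold after MECS and from 0.64-fold to 1.05-fold in naive brain. Among all features, 8.51% were called in MECS brain and 10.5% in naive brain. With the number shared by a U1 library and its input as a block, 1488 features were called in MECS brain, against 918 without it, and neither identifier was among them.

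The design also allows a test of whether stimulation changes the ratio of U1 to input. Dividing each U1 library by the input of the same number, the ratio of Hif1a was 1.28, 1.23 and 0.875 in MECS pairs 1, 2 and 3, against 0.718, 1.03 and 0.596 in naive pairs 1, 2 and 3. The highest naive ratio, 1.03, lay above the lowest MECS ratio, 0.875, so the groups overlapped (2-sided exact permutation test on log2 ratios, p = 0.2). The ratio of Gm15283 was 0.92, 1.03 and 0.802 in MECS pairs 1, 2 and 3, against 0.686, 1.05 and 0.786 in naive pairs 1, 2 and 3, and the groups overlapped here too (2-sided exact permutation test, p = 0.5). In the fit over all 12 libraries the MECS effect on the ratio was 0.29 on the log2 scale for Hif1a (SE 0.40, edgeR adjusted p = 0.997) and 0.16 for Gm15283 (SE 0.23, edgeR adjusted p = 0.997). The 95% intervals run from 0.70-fold to 2.13-fold for Hif1a and from 0.81-fold to 1.54-fold for Gm15283. For Hif1a the effect was 0.92 without naive U1 2 (edgeR adjusted p = 0.85) and 0.02 without MECS input 2 (edgeR adjusted p = 0.999). Of 12184 features tested by edgeR, 0 (0%) were called, 383 had an unadjusted p under 0.05, and DESeq2 also called 0.

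**Figure D4:**
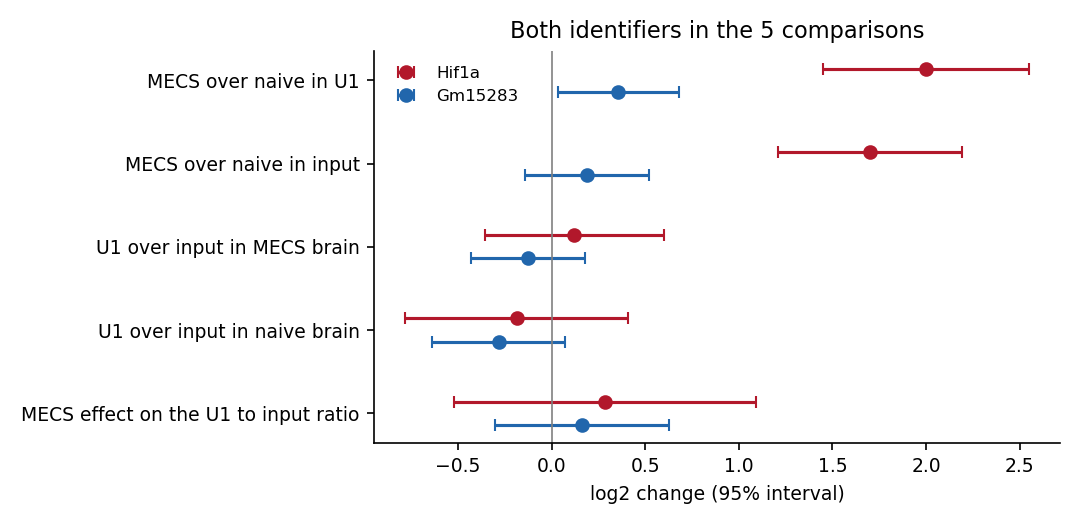
Log2 change of Hif1a and Gm15283 in the 5 comparisons, with 95% intervals from the fits over all features. The intervals of MECS over naive are a description and carry no test. Hif1a stands at 1.998 in U1 and 1.70 in input for MECS over naive, the contrasts from which it was chosen, and every interval of U1 over input includes 0.

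Stimulation was tested for the identifiers of genes that act with HIF-1α, and none of those covered passed. Like those of the pair, their counts may hold RNA made from the other strand. The values of subunits, regulators and targets are therefore levels of identifiers, and cannot be read as levels of the genes' own RNA. Of 64 genes in lists of subunits, regulators and targets, edgeR's test covered 27 in U1 RNA and called 0, where 0.386% of all features were called (0.332% higher and 0.0539% lower). In input it covered 26 and called 0, where 0.606% of features were called (0.51% higher and 0.0961% lower). With shares this small, 0 calls among so few genes cannot show whether the pathway responded. For the targets the median log2 change was -0.10 in U1 and -0.08 in input, beside -0.02 in both over all features. Without MECS U1 2, Gapdh passed in U1 RNA (log2 change 0.72, edgeR adjusted p = 0.0411).

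Among the other subunits, Epas1, which encodes HIF-2α, averaged 47.7 ± 4.79 CPM in MECS U1 and 56.3 ± 29.9 CPM in naive U1 (SD, n = 3 each). The log2 change was -0.26 (SE 0.27). In input its change was 0.25 (SE 0.26). Arnt2, a partner of HIF-1α expressed in brain, averaged 6.98 CPM in MECS U1 and 5.99 CPM in naive U1, a log2 change of 0.26 (SE 0.51). In input it averaged 9.77 CPM after MECS and 16.4 CPM in naive brain, a log2 change of -0.73 (SE 0.41). Hif3a and Arnt had means under 10 counts. Egln1, the main oxygen-sensing prolyl hydroxylase, had a log2 change of 0.57 (SE 0.35) in U1 and 0.0025 (SE 0.42) in input. The coactivator gene Ep300 had -0.36 (SE 0.23) in U1 and -0.47 (SE 0.26) in input. Vhl, Hif1an and Egln3 also had means under 10 counts.

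Among the targets, Vegfa, a blood vessel growth factor gene, averaged 43.0 CPM in MECS U1 and 26.0 CPM in naive U1, a log2 change of 0.74 (SE 0.26, edgeR adjusted p = 0.268). In input its change was 0.18 (SE 0.28). Gapdh, a glycolytic enzyme gene, had 0.54 (SE 0.18, edgeR adjusted p = 0.227) in U1 and 0.46 (SE 0.18) in input. Slc2a1, the glucose transporter gene of the blood-brain barrier, had -0.22 (SE 0.34) in U1 and 0.30 (SE 0.37) in input. Car9, a carbonic anhydrase gene used as a marker of hypoxia, had 0.48 (SE 0.21) in U1 and 1.24 (SE 0.38, edgeR adjusted p = 0.138) in input.

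**Figure D5:**
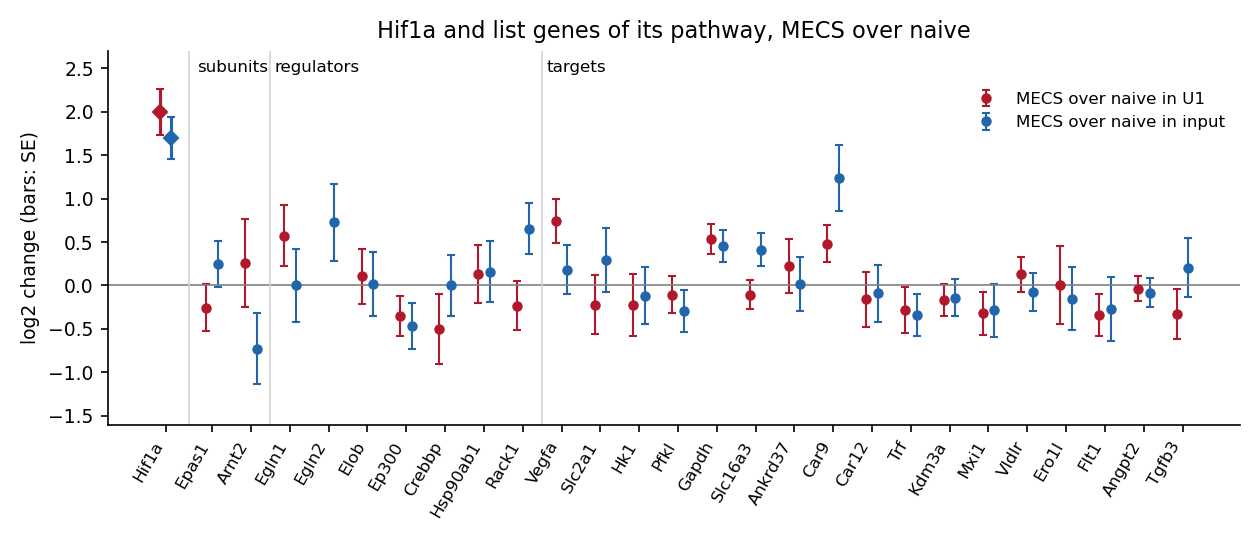
Log2 change of MECS over naive in U1 and input RNA for Hif1a (diamonds) and the list genes with a mean of at least 10 counts, in the order subunits, regulators and targets; bars are SE. Hif1a, which was not tested in these contrasts, lies at 1.998 in U1 and 1.70 in input, and 0 of the list genes passed the test.

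With U1 against input, a few pathway genes passed the test in either state. Car9 averaged 69.1 CPM in MECS U1 and 24.5 CPM in MECS input, a log2 rise of 1.48 (SE 0.23, edgeR adjusted p = 0.000125), and 48.9 CPM in naive U1 and 9.94 CPM in naive input, a rise of 2.25 (SE 0.33, edgeR adjusted p = 9.07e-06). Of its exon bases 31.1% lie opposite the antisense gene Gm12454. Flt1, a receptor of VEGF, rose by 1.12 (SE 0.29, edgeR adjusted p = 0.0152) in MECS brain and by 1.21 (SE 0.30, edgeR adjusted p = 0.00531) in naive brain. Arnt2, at low levels of 5.99 CPM in naive U1 and 16.4 CPM in naive input, fell by 1.49 (SE 0.47, edgeR adjusted p = 0.0382). In MECS brain it had -0.51 (SE 0.44). That makes 2 higher of 28 in MECS brain, where 3.3% of features were higher and 5.21% lower, and 2 higher and 1 lower of 28 in naive brain, where 4.19% were higher and 6.26% lower. Flt1 lost its call without naive U1 3 or naive input 1, and without MECS U1 1 or MECS input 3, with edgeR adjusted p up to 0.0988. Arnt2 kept its call under 4 of 13 alternatives, with adjusted p up to 0.133 by edgeR or DESeq2, and edgeR adjusted p = 0.0752 with the replicate block. Rack1, which encodes a protein that promotes HIF-1α breakdown, passed in MECS brain with the block (log2 difference -0.78, edgeR adjusted p = 0.0199) and without MECS input 2 (-0.95, edgeR adjusted p = 0.0474). Epas1 passed only without naive U1 2 (naive brain, log2 difference 0.93, edgeR adjusted p = 0.0275).

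Because Hif1a lies inside a gene of the other strand, features lying inside the other HIF genes on the opposite strand were summed per gene and tested in the same way, a reading chosen after seeing the data. Such features could be tested for 10 of the genes. For stimulation edgeR called 0 of 10 in U1 and 0 of 10 in input, where 0.534% and 1.12% of all such genes were called. Those opposite Bnip3 passed in U1 RNA with no filter and without MECS U1 2 (edgeR adjusted p = 0.0201 and 0.0278). With U1 against input, 3 of 10 passed in each state, where 11.0% of such genes were called in MECS brain and 16.4% in naive brain. The features opposite Slc2a1 were higher with U1, by 0.85 (SE 0.21, edgeR adjusted p = 0.0125) in MECS brain and 0.76 (SE 0.17, edgeR adjusted p = 0.00239) in naive brain. Those opposite Bnip3, a mitophagy gene, were lower with U1, with -0.62 (SE 0.16, edgeR adjusted p = 0.0174) in MECS brain and -1.31 (SE 0.18, edgeR adjusted p = 1.43e-05) in naive brain. The feature opposite Arnt2 was lower too, with -0.56 (SE 0.13, edgeR adjusted p = 0.00825) in MECS brain and -0.52 (SE 0.16, edgeR adjusted p = 0.0279) in naive brain. With the replicate block, features opposite Epo also passed in both states (edgeR adjusted p = 0.0269 in MECS brain and 0.0268 in naive brain), and those opposite Tgfb3 in naive brain (edgeR adjusted p = 0.0382). The features summed for Epo were Gigyf1, 9130604C24Rik and Gm8066, separately annotated genes with at least 50% of their exon bases within its span. In naive brain, features opposite Epo also passed with library size scaling (edgeR adjusted p = 0.0437), without naive U1 2 (0.0286) and without naive input 3 (0.0447), and those opposite Tgfb3 without naive U1 2 (edgeR adjusted p = 0.0127). Of 11 alternatives, Slc2a1 and Bnip3 each kept the call under 8 in MECS brain and 11 in naive brain, and Arnt2 under 9 in MECS brain and 6 in naive brain. The calls of MECS brain were lost without MECS U1 1 or MECS input 3 for Slc2a1 and Arnt2, for Slc2a1 also with DESeq2, and without MECS U1 2, MECS U1 3 or MECS input 1 for Bnip3. In naive brain Arnt2 lost its call with library size scaling and without naive U1 1, naive U1 3, naive input 1 or naive input 2.

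Markers of endothelial cells, a list that holds Flt1, summed to 42.7 to 62.8 CPM in MECS U1 and 17.3 to 33.9 CPM in MECS input, and to 52.8 to 100.3 CPM in naive U1 and 20.5 to 39.1 CPM in naive input. Flt1 is the 1 gene of the 5 in that list with a mean of at least 10 counts and gives most of the sum. The other 4 summed to 7.43 to 19.7 CPM in MECS U1 and 6.63 to 10.7 CPM in MECS input, which overlap, and to 12.6 to 29.4 CPM in naive U1 and 5.13 to 10.1 CPM in naive input, which do not. Markers of neurons were lower with U1, at 86.5 to 131 CPM in MECS U1 and 239 to 343 CPM in MECS input, and at 76.0 to 178 CPM in naive U1 and 229 to 397 CPM in naive input. Markers of astrocytes summed to 84.2 to 97.6 CPM in MECS U1 and 219 to 236 CPM in MECS input, and to 84.0 to 137 CPM in naive U1 and 193 to 405 CPM in naive input. Those of oligodendrocytes summed to 262 to 316 CPM in MECS U1 and 507 to 674 CPM in MECS input, and to 262 to 279 CPM in naive U1 and 479.8 to 707 CPM in naive input. As sums, none of the 6 marker lists overlapped between U1 and input in either state, so this was not particular to these 3. The share of all features that separate in this way was not computed. In MECS brain the gap was narrow for pericytes and smooth muscle (126.3 against 125.99 CPM) and for microglia (256 against 261 CPM). A few highly counted genes can set such a sum. The marker counts may also hold RNA made from the other strand. Other than for Flt1, the direction of single marker genes is not given here. Microglial markers summed to 247 to 256 CPM in MECS U1 and 261 to 301 CPM in MECS input, and to 238 to 275 CPM in naive U1 and 282 to 313 CPM in naive input. Those of pericytes and smooth muscle summed to 126.3 to 143 CPM in MECS U1 and 105 to 125.99 CPM in MECS input. In naive brain they summed to 142 to 201 CPM in U1 and 98.5 to 113 CPM in input. The part of any of these cells in the results of U1 against input was not tested. Between MECS and naive libraries, the summed ranges of all 6 marker lists overlapped in both U1 and input. Of 34 marker genes, 24 had a mean of at least 10 counts, and 6 of the 8 neuronal ones were among these. Gene counts per library ran from 704432 to 1962312, which were 1.42 to 1.84% of the reads listed.

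The features whose levels followed those of Hif1a most closely were ranked by Pearson's r of log2 CPM over the 12 libraries, among 8264 features whose symbols are not predicted or clone names. They were Sorbs2os (r = 0.96), Rhbdd2 (0.95), Ap3m1 (0.94), Nap1l5 (0.94) and Serpind1 (0.93). Sorbs2os lies opposite Sorbs2, an actin-linked adaptor gene, Nap1l5 within an intron of Herc3, and Serpind1 within Pi4ka, a lipid kinase gene. Like Hif1a within Gm15283, 3 of these 5 lie inside a gene of the other strand, as do 12.7% of the features ranked. All 5 averaged more after MECS, as Hif1a did, and the share among features higher after MECS was not computed. Ap3m1 overlaps Vcl, the vinculin gene, by 31.9% of its exon bases. Serpind1 averaged 409 CPM in MECS U1, 223 CPM in naive U1, 367 CPM in MECS input and 228 CPM in naive input. Gm15283 itself had r = 0.62 with Hif1a, and 3.68% of the features ranked had a higher r. The points of each r share libraries, depth and the contrast between states, so these values carry no test.

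The promoter of Hif1a is shown because HIF-1 binds sites that can hold the core ACGTG, here in capitals. It is the 250 bases before the RefSeq start (GRCm38.p6, chr12:73907617-73907866, plus strand), which lies within the first intron of Hif1a-202.
Hif1a promoter: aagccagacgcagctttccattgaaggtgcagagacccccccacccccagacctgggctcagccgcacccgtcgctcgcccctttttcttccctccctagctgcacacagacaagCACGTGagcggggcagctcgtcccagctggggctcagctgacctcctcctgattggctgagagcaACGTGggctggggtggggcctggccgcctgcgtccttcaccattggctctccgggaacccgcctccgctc

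On both strands ACGTG was found 3 times, 135, 134 and 70 bases before the start. The first 2 matches overlap as both strands of the palindrome CACGTG. At least 1 ACGTG was present in 16.6% of 32851 RefSeq windows of that length, and CACGTG in 6.02%. The letters TGACG and TGANTCA, parts of sites for activity-regulated CREB and AP-1 factors, were not in this window, and 17.8% and 6.75% of windows held them. The window was 66.4% G and C, against a median of 52.4% over all windows.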

How the data were processed

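For each of 12 libraries the authors deposited raw counts per Ensembl identifier, whole numbers without normalization. The submitters' processing notes name build mm10 and, with no role, DESeq2, Salmon 1.4, StringTie 2.1.3, HISAT2 2.2.0, FastQC and Trimmomatic 0.39. No source used here states the program that counted or its strand setting. Rows naming no gene were left out; reads in no feature made up 88.3 to 91.3% of those listed. Of 55471 identifiers, 55230 matched GENCODE M21.

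Groups were compared over all features with edgeR 4.0.16 in R 4.3.3 (quasi-likelihood test, TMM, filterByExpr, Benjamini-Hochberg adjustment at 0.05), after tests on simulated data. An SE is the log2 change divided by the square root of F, and intervals are 95% from the fit's t distribution. Alternatives were RLE or library size scaling, no filter, DESeq2 1.42.0, removal of mitochondrial, ribosomal and small RNA genes, 1 fit over 12 libraries, dropping each library in turn, and a replicate block. Title prefixes tie each U1 library to an input library. Deviations from group means correlated at 0.018, -0.09 and -0.014 in naive pairs and 0.101, 0.207 and 0.107 in MECS pairs. Between unlike numbers they ran from -0.068 to 0.068 in naive and from -0.125 to 0.026 in MECS libraries. The naive pairs thus did not correlate above unlike numbers. Exact tests and intervals of shares used scipy 1.17.1.

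The members and gene lists were chosen with earlier results of these data known. Text names the members, genes within 250 kb, genes of 3 HIF lists with a mean of at least 10 counts, and the 5 features most correlated with Hif1a among those with a mean log2 CPM of at least 2 and a symbol that is not a predicted or clone name. List genes under that mean are named without values of their own, as too low or for the features opposite them. Aldoa, with several identifiers, was left out.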

Additional observations from a re-analysis of the deposited data

How the results depend on the processing

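For Hif1a and Gm15283, no alternative called a difference between U1 and input or a MECS effect on their ratio, with edgeR or DESeq2 adjusted p of 0.104 or more throughout. The log2 difference of U1 over input for Hif1a ran from -0.80 to 0.04 in naive brain and from -0.14 to 0.39 in MECS brain when single libraries were left out, so its sign was not fixed. For Gm15283 it stayed below 0, from -0.38 to -0.13 and from -0.21 to -0.03. The MECS effect on the ratio ran from 0.02 to 0.92 for Hif1a and from 0.02 to 0.26 for Gm15283. The MECS change of Hif1a ran from 1.77 to 2.64 in U1 and from 1.43 to 1.99 in input, and that of Gm15283 from 0.29 to 0.45 and from 0.12 to 0.35. The U1 minus input share of Hif1a ran from -0.51 to 10.4 points in MECS brain and from -5.18 to 2.15 points in naive brain, and pairing by number left the mean differences at 4.71 and -1.29 points.

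Counts over all features depended more on the settings, and the cause was not tested. With the replicate block, the MECS change of Hif1a was 2.03 in U1 and the block changed no call of the pair. The block gave 1488 features for U1 over input in MECS brain (918 without) and 142 for MECS over naive input (63 without), where shared numbers did not pair the samples (correlations of -0.026 to 0.058). For MECS over naive input, library size scaling gave 129 and no filter 111; single libraries left out gave 19 (naive input 1) to 114 (MECS input 1). For MECS over naive U1 (43), no filter gave 151, DESeq2 105 and the fit over 12 libraries 88; single libraries left out gave 13 (MECS U1 1) to 225 (naive U1 2). For U1 over input, they gave 711 (naive input 1) to 1254 in naive brain (1141) and 613 to 894 in MECS brain. For the ratio, library size scaling, no filter and the block each called 1 feature, Ccdc107, a name outside the naming rule and chosen after its values were seen; single libraries left out gave 0 to 1. Naive values of Hif1a rest on 22 to 118 counts per library, which limits their precision.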
